A study of Sus scrofa with 30 samples.

Results

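The miR-30 family was measured by 10 rows of a plasma table that lists 411 porcine miRNAs (ssc-miRNAs). The rows were taken by name, as those whose number directly after ssc-miR- is 30, whichever letter and arm follow, and no measured value entered the choice. They comprise 5 guide rows (ssc-miR-30a-5p, ssc-miR-30b-5p, ssc-miR-30c-5p, ssc-miR-30e-5p and ssc-miR-30d, which is listed without an arm and was counted with the 5p rows) and 5 rows of the 3p arm (ssc-miR-30a-3p, ssc-miR-30b-3p, ssc-miR-30c-3p, ssc-miR-30c-1-3p and ssc-miR-30e-3p). All 10 passed the filter on low counts, a CPM (counts scaled to a common library size) above 0.5 in at least 3 libraries, as did every other row.

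Small RNA was sequenced from plasma of 3 male Göttingen minipigs (GMPs), 4 months old, each of which received total body irradiation (TBI) of 2.2 Gy and did not survive it. Each animal gave one library 7 days before TBI (C7), one on the day before (C1), and 8 more between the day of TBI (0d) and 20d. C7 with C1 formed the pre-TBI group. The study's phases after TBI are Early (0d until 7d), Mid (10d plus 14d), Late, which is 17d, and late regression (LR), which is 20d. They were drawn from a principal component analysis of these same libraries, and so they depend on the values compared. The animals were the control arm of a drug study, so all of them received a dextrose vehicle under the skin on days 1 and 8. They were anaesthetized for irradiation and for blood draws, and were given oral antibiotics (ciprofloxacin and amoxicillin/clavulanate) when neutrophil counts were low. Since no unirradiated animal was followed, irradiation, its anaesthesia, repeated blood draws and age cannot be told apart from 0d onwards. The vehicle and any antibiotics add to these later.

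Of the 30 libraries, 6 were left out because they held 17 counts or fewer, all from minipig 3 from 3d onwards. The 24 libraries used held 24341 to 550316 counts, and they fell into 6 pre-TBI, 10 Early, 4 Mid, 2 Late and 2 LR libraries. Totals were low at Mid (35762 to 103083) and Late (29159 and 63441), and the smallest library of all was that of minipig 1 at C7. From 3d onwards every value rests on minipigs 1 and 2. Libraries of one minipig are repeated samples of one animal, so the p-values, which treat libraries as separate, describe these 3 animals.

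A miRNA hairpin yields a 5p and a 3p strand. One of them, the guide, is loaded into an Argonaute protein and represses mRNAs that pair with its seed, the stretch near its 5′ end, while the other strand is usually degraded. In the miR-30 family the 5p strand is the usual guide, the guides of all members share one seed, and the family is best known for restraining fibrosis, epithelial-to-mesenchymal transition, autophagy and p53-dependent cell death. The miR-30 miRNAs are made in many tissues, including heart, kidney, muscle and blood cells, so their plasma level has no single source.

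The seed, bases 2 to 8 of the mature strand, is shown for 1 guide row and 1 3p row, because it separates the arms into different target sets. The capitals mark the seed.
miR-30c-5p: GUAAACA
miR-30a-3p: UUUCAGU
In the RefSeq annotation of the pig genome, Sscrofa11.1, the family has 6 hairpin genes on 3 chromosomes, arranged as pairs: MIR30A with MIR30C-2, MIR30B with MIR30D, and MIR30E with MIR30C-1. The last pair lies within NFYC, which encodes a subunit of the transcription factor NF-Y. Both MIR30C hairpins yield the same guide, so the ssc-miR-30c-5p row cannot be assigned to one of them, whereas the 3p strands of MIR30C-1 and MIR30C-2 differ. Coordinates are not given because the authors aligned to another assembly.

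The family was carried by 3 guide rows. ssc-miR-30d made up 36.1% of all miR-30 counts, ssc-miR-30e-5p 21.1% and ssc-miR-30a-5p 20.4%, whereas each of the other 7 rows made up 2.04% to 4.41%. On the TMM-scaled CPM scale the median level over the 24 libraries was 1951 for ssc-miR-30d, which placed it at 84 of 411 rows, 1376 for ssc-miR-30a-5p and 901 for ssc-miR-30e-5p. The guide rows ssc-miR-30b-5p and ssc-miR-30c-5p had medians of 190 and 186. The 3p medians ran from 133.2 for ssc-miR-30c-1-3p to 294 for ssc-miR-30c-3p, so both of these scarce guide rows lay among the 3p rows, and they could not be ordered among them beyond their spread. All 10 rows took 0.753% ± 0.270 of a library's counts before TBI (SD, n = 6). The share was 0.685% ± 0.268 in Early libraries (SD, n = 10) and 0.662% ± 0.335 in Mid ones (SD, n = 4). It was 0.628% and 2.92% in the Late libraries of minipigs 1 and 2, and 0.477% and 0.945% at LR. The Late library of minipig 2 stood apart. Its share had an exact binomial 95% interval of 2.79% to 3.05%, which covers counting error only, against a highest pre-TBI share of 1.10%.

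**Figure D1:**
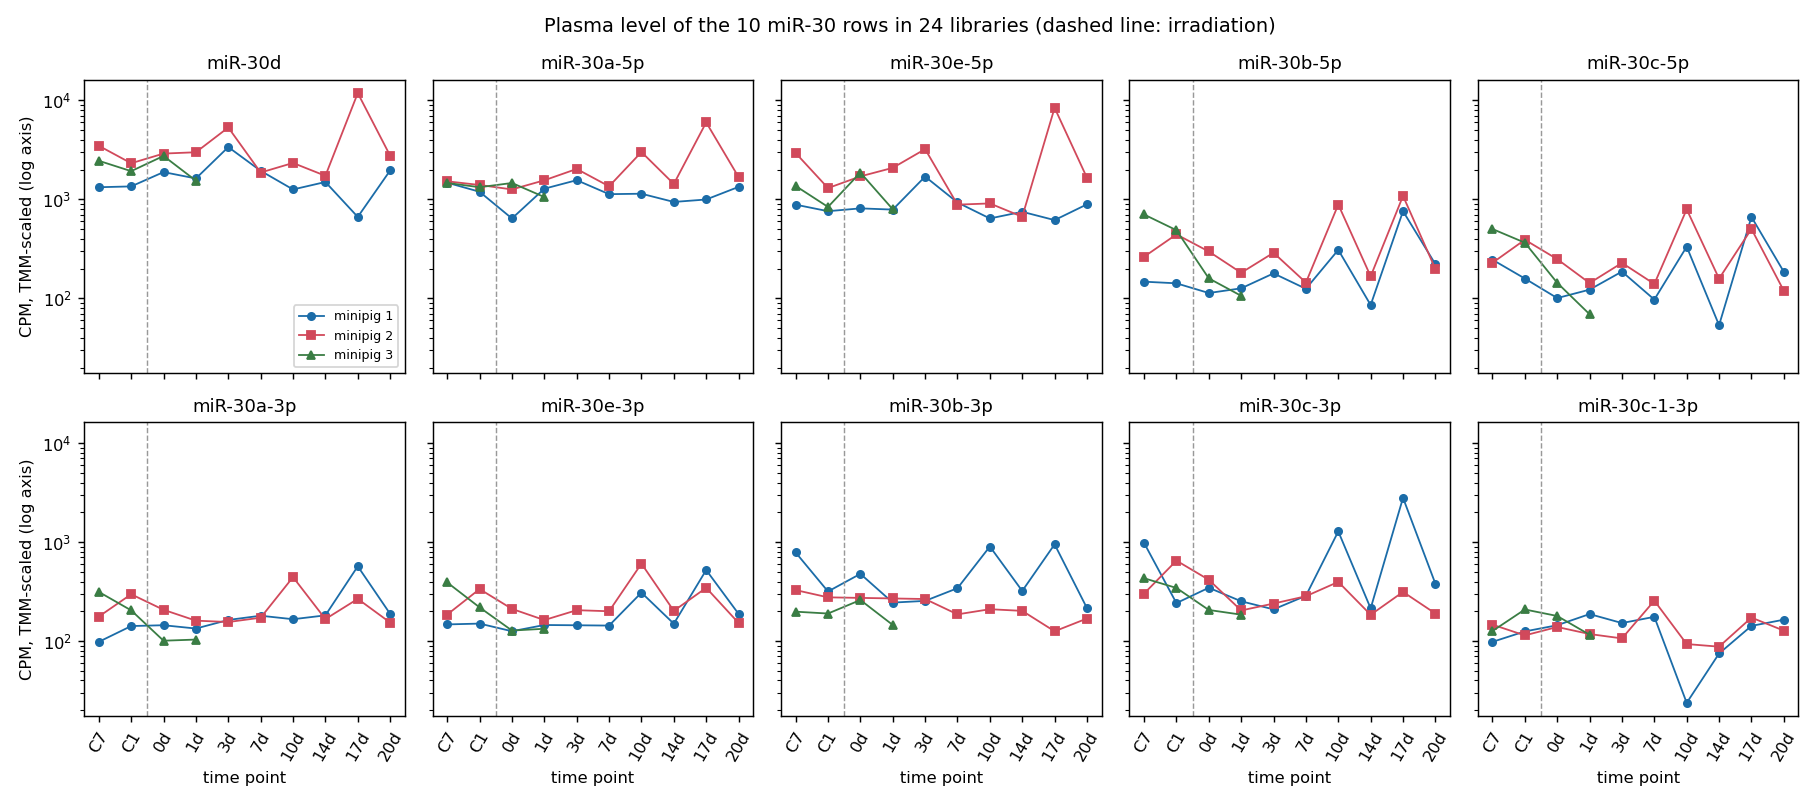
TMM-scaled CPM (log axis) of the 10 miR-30 rows at each time point in 24 libraries, one line for each minipig, with the guide rows in the first 5 panels and the 3p rows in the others. The 6 pre-TBI values of ssc-miR-30a-5p lie between 1194 and 1522, and the highest point of ssc-miR-30d is 11858 in minipig 2 at 17d.

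Before TBI the rows differed in how far the 6 libraries spread. ssc-miR-30a-5p was the steadiest of the family, at 1194 CPM in the lowest library, 1431 in the median and 1522 in the highest. This 1.28-fold range came with an SD of 0.128 on the log2 CPM scale, the second smallest of 411 rows, whose median SD was 0.548. ssc-miR-30b-5p was the least steady, from 142 to 704 CPM, an SD of 0.930 with a 4.96-fold range. That range ran between animals, with 147 and 142 CPM in minipig 1, 263 and 443 in minipig 2, and 704 and 488 in minipig 3. In minipig 1 at C7 only 3 counts lay behind the value. C1 was also compared with C7 by edgeR's quasi-likelihood test. No miR-30 row was called at an unadjusted p under 0.05, beside 0.73% of all rows.

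Each phase was then compared with pre-TBI by edgeR's quasi-likelihood test over all 411 rows, with Benjamini-Hochberg adjustment. No miR-30 row passed an adjusted p under 0.05 in any phase, so the directions below are those of the fitted values and of the study's own threshold, an unadjusted p under 0.05. At Early, 4 of 10 rows were lower at that threshold and 0 higher, beside 13.6% of all rows lower and 5.11% higher, and 0 of 411 rows passed the adjusted threshold. These 4 rows were ssc-miR-30b-5p with ssc-miR-30c-5p and ssc-miR-30a-3p with ssc-miR-30e-3p. Each of these pairs stands for 1 measurement, as described below. At Mid, 1 of 10 was lower, beside 3.16% of all rows lower and 5.35% in either direction. At Late, 5 of 10 were higher and 0 lower, beside 15.6% of all rows higher and 7.06% lower. The adjusted threshold was passed there by 4.38% of all rows. At LR, 0 of 10 were called, beside 5.6% of all rows. The 10 rows had a median log2 fold change of -0.37 for Early, 0.02 for Mid, 1.07 for Late and -0.45 for LR, against 0.02, 0.05, 0.08 and -0.01 over all rows. The 4 comparisons share the same 6 pre-TBI libraries.

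**Figure D2:**
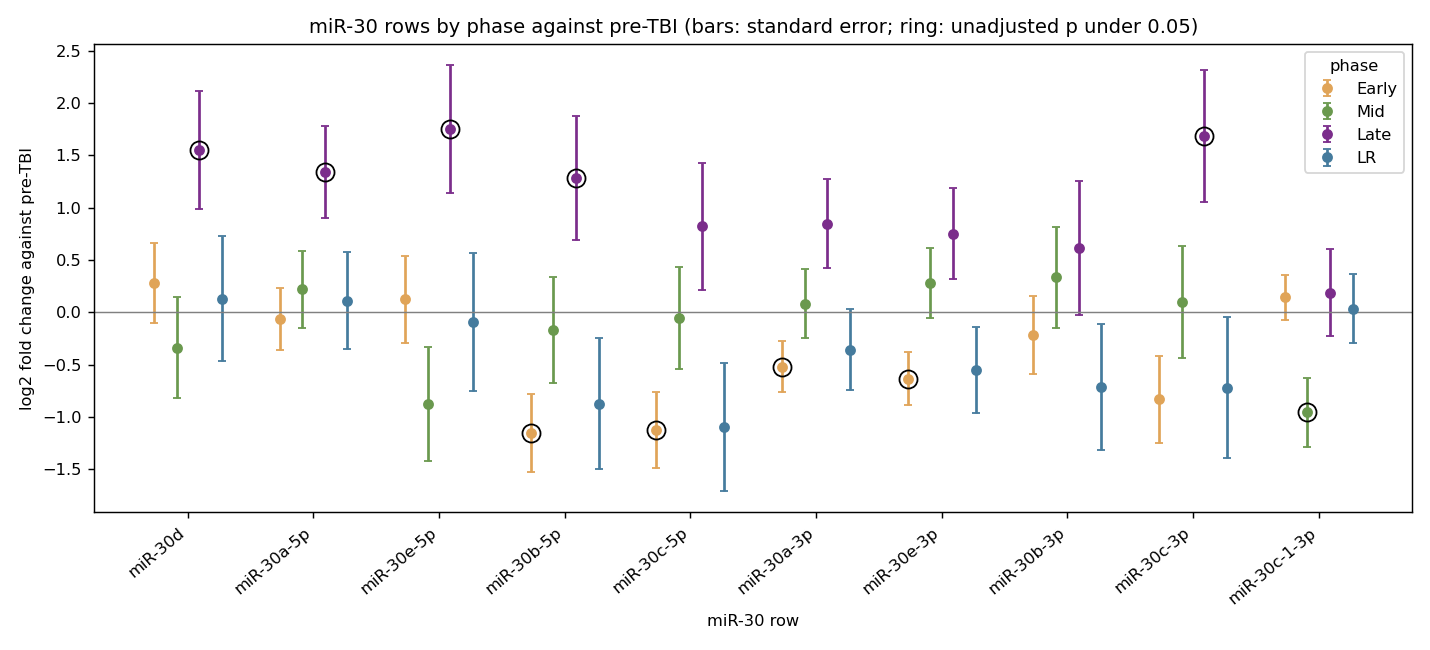
Log2 fold change of each miR-30 row against pre-TBI in the 4 phases, with standard errors from the edgeR fit over 24 libraries; a ring marks an unadjusted p under 0.05. All 10 Late values are above 0, and the ringed Early values lie between -0.52 and -1.15.

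The abundant guide rows were not called at Early. ssc-miR-30d, the most abundant member, had 1327, 2123 and 3480 CPM as the lowest, median and highest of the pre-TBI libraries and 1545, 2345 and 5326 at Early. The groups overlapped in all but 1 Early library, that of minipig 2 at 3d, and the log2 fold change was 0.28 ± 0.38 (SE, adjusted p = 0.672). ssc-miR-30a-5p had 642, 1319 and 2030 CPM at Early, with a log2 fold change of -0.06 ± 0.29 (SE, adjusted p = 0.918). Against its narrow pre-TBI range, 3 of the 10 Early libraries lay above and 3 below. ssc-miR-30e-5p ran from 760 to 2941 CPM before TBI and from 788 to 3220 at Early, at 0.12 ± 0.42 (SE, adjusted p = 0.887). At 3d the rows ssc-miR-30d and ssc-miR-30e-5p had their highest Early values in both minipigs, at 3378 and 5326 CPM for ssc-miR-30d, but the 3d fit gave a log2 fold change of 1.01 ± 0.57 (SE) with an unadjusted p = 0.0921 and an adjusted p = 0.669. The platelet and myeloid markers summed to their highest log2 CPM in the same libraries, 15.31 and 16.19 against at most 14.34 before TBI. So did the lymphocyte markers (11.40 and 12.02 against at most 10.94). The rows outside the family that the study names for irradiation in other animals did too (13.98 and 14.10 against at most 13.02). The erythroid sum was 14.97 and 15.81 there, against at most 16.43 before TBI. The liver sum was also highest among Early libraries at 3d in both minipigs, at 9.53 in each, against at most 10.36 before TBI. The muscle sum did not peak there. The part of these markers in the 3d values was not tested.

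The scarce guide rows were lower at Early at the unadjusted threshold only. ssc-miR-30b-5p had 142, 353 and 704 CPM before TBI and 106, 152 and 298 at Early, where 4 of 10 libraries lay below every pre-TBI library. The log2 fold change was -1.15 ± 0.37 (SE), a 2.22-fold lower level, with an unadjusted p = 0.00537 and an adjusted p = 0.0911. ssc-miR-30c-5p had 159, 305 and 502 CPM before TBI and 69.1, 141 and 249 at Early, with 7 of 10 libraries below the pre-TBI range. Its log2 fold change was -1.12 ± 0.36 (SE, unadjusted p = 0.00506, adjusted p = 0.0911). The difference was uneven between animals. On the log2 CPM scale ssc-miR-30b-5p at Early minus pre-TBI was -0.11 in minipig 1, -0.63 in minipig 2 and -2.11 in minipig 3, whose Early libraries are 0d and 1d alone. Without minipig 3 the log2 fold change of ssc-miR-30b-5p was -0.54 (unadjusted p = 0.255, adjusted p = 0.678), and none of the 10 rows was called at Early. Both rows passed the adjusted threshold in DESeq2's Wald test (adjusted p = 0.0397 and 0.0325), in edgeR's likelihood ratio test (0.0480 and 0.0457) and with only the 2 groups in the fit (0.0322 and 0.0264).

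The counts of ssc-miR-30b-5p and ssc-miR-30c-5p kept one ratio across the 24 libraries within counting noise (chi-square of 0.949 per degree of freedom, total ratio 1.28). The same was true of ssc-miR-30a-3p and ssc-miR-30e-3p (0.498). The strands in each of these pairs have near-identical sequences, so how the authors' counting divided their reads is uncertain. Each pair stands for 1 measurement rather than for independent ones. The abundant guide rows did not keep one ratio, at 7.95 for ssc-miR-30d with ssc-miR-30e-5p, 13.3 for ssc-miR-30a-5p with ssc-miR-30d and 23.8 for ssc-miR-30a-5p with ssc-miR-30e-5p. How any shared reads were divided among them is not known either.

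Of the 3p rows, 2 were lower at Early at the unadjusted threshold, and they were that second pair. ssc-miR-30e-3p had 147, 202 and 391 CPM before TBI and 125.8, 145 and 212 at Early, with 6 of 10 libraries below the pre-TBI range and a log2 fold change of -0.64 ± 0.25 (SE, unadjusted p = 0.0195, adjusted p = 0.190). ssc-miR-30a-3p had 98.3, 190.7 and 314 CPM before TBI and 101, 158 and 207 at Early. Its groups overlapped fully, at -0.52 ± 0.24 (SE, unadjusted p = 0.0431, adjusted p = 0.244). Within animals ssc-miR-30a-3p differed by 0.37 in minipig 1, -0.39 in minipig 2 and -1.25 in minipig 3. ssc-miR-30c-3p lay just outside the threshold, at -0.83 ± 0.41 (SE, unadjusted p = 0.0553, adjusted p = 0.267), with 5 of 10 Early libraries below the pre-TBI range. In log2 CPM, every animal had a lower Early mean, with differences of -0.84, -0.67 and -0.95 for minipigs 1, 2 and 3. With the animal as a block it was called at the unadjusted threshold, at -0.90 (unadjusted p = 0.0286, adjusted p = 0.203). ssc-miR-30b-3p and ssc-miR-30c-1-3p had log2 fold changes of -0.22 ± 0.37 and 0.14 ± 0.22 (SE).

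Single time points were fitted against pre-TBI as well, and 0 miR-30 rows passed the adjusted threshold at any of them, beside shares of all rows of 1.22% (3d), 0.243% (14d), 4.87% (17d), 0.73% (20d) and 0 otherwise. At the unadjusted threshold, rows were lower at 0d (2 of 10, beside 2.19% of all rows lower), 1d (3, beside 8.76%), 7d (2, beside 4.38%), 14d (2, beside 4.87%) and 20d (1, beside 2.92%). The rows called at 0d, 7d and 14d were ssc-miR-30b-5p and ssc-miR-30c-5p, which stand for 1 measurement. At 1d ssc-miR-30e-3p joined them, and at 20d it was ssc-miR-30c-5p alone. At 3d none was called, beside 8.52% of all rows. At 17d, which is the Late phase, the same 5 rows were higher as in the phase fit, beside 15.3% of all rows higher. The time point with the smallest p was 1d, where ssc-miR-30c-5p had a log2 fold change of -1.54 ± 0.42 (SE, unadjusted p = 0.00182, adjusted p = 0.185). At 10d ssc-miR-30e-3p was higher (beside 2.92% of all rows higher) and ssc-miR-30c-1-3p lower (beside 4.38%).

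The scarce guide rows then alternated from one sampling to the next in both remaining minipigs. This pattern was picked out after the values were seen, and the share of all rows with the full pattern was not counted. In minipig 1 the 10d, 14d, 17d and 20d levels of ssc-miR-30b-5p were 309, 85.6, 760 and 221 CPM. In minipig 2 they were 887, 167, 1084 and 198 CPM. ssc-miR-30c-5p followed with 333, 53.5, 665 and 185 CPM in minipig 1 and 793, 158, 503 and 119 in minipig 2. The level at 10d over that at 14d was 3.61 and 5.31 for ssc-miR-30b-5p and 6.22 and 5.02 for ssc-miR-30c-5p, whereas over all rows the median ratio was 1.11 and 1.05. Only 54% and 51.6% of all rows were higher at 10d than at 14d. The alternation was not confined to guide rows. ssc-miR-30c-3p and ssc-miR-30e-3p rose and fell at the same samplings in both minipigs. Their levels at 10d over 14d were 5.99 and 2.15 for ssc-miR-30c-3p and 2.06 and 3.00 for ssc-miR-30e-3p. The libraries of 10d and 17d were also the smallest after TBI in each animal, and 5 to 16 counts lay behind the values of minipig 1 from 10d to 17d. Over the 24 libraries the correlation with the log2 library total was -0.27 for ssc-miR-30b-5p and -0.40 for ssc-miR-30c-5p. It was -0.59 for ssc-miR-30c-3p and -0.46 for ssc-miR-30e-3p, with a median of 0.06 over all rows. The part of library size in the alternation was not tested.

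At Mid, ssc-miR-30c-1-3p was the row that was called. It had 98.3, 125.8 and 209 CPM as the lowest, median and highest before TBI, and 23.8, 74.9, 93.3 and 87.8 CPM in the 4 Mid libraries, all below the pre-TBI range. Only 1.22% of all rows had every Mid library below every pre-TBI library. The log2 fold change was -0.96 ± 0.33 (SE, unadjusted p = 0.00784, adjusted p = 0.808). The 4 values rest on 1, 7, 4 and 10 counts, and without minipig 1, which held the library with 1 count, the unadjusted p was 0.109 and the adjusted p 0.548. The other 9 rows had Mid log2 fold changes from -0.87 for ssc-miR-30e-5p to 0.33 for ssc-miR-30b-3p.

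The Late fit averaged libraries that went opposite ways for several rows. ssc-miR-30d was at 665 CPM in minipig 1 and 11858 in minipig 2 at 17d, one below and one above the whole pre-TBI range of 1327 to 3480. ssc-miR-30e-5p was at 617 and 8418 CPM, and ssc-miR-30a-5p at 997 and 6000, again below the pre-TBI range in minipig 1 and above it in minipig 2. The fitted log2 fold changes were 1.55 ± 0.56 for ssc-miR-30d, 1.75 ± 0.61 for ssc-miR-30e-5p and 1.34 ± 0.44 for ssc-miR-30a-5p (SE, unadjusted p = 0.0108, 0.00868 and 0.00558, adjusted p = 0.118, 0.105 and 0.0881). Without minipig 2 they were -1.73, -0.96 and -0.75, so the direction of these guide rows at Late is that of 1 library. ssc-miR-30c-3p went the other way, with 2802 CPM in minipig 1 and 314 in minipig 2 against a pre-TBI range of 242 to 983. Its log2 fold change of 1.68 ± 0.63 (SE, unadjusted p = 0.0139, adjusted p = 0.124) became -0.52 without minipig 1, and 1.26 with the animal as a block (unadjusted p = 0.0604, adjusted p = 0.279), where its call was lost.

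For the scarce guide rows both Late libraries lay on the same side. ssc-miR-30b-5p had 760 and 1084 CPM at 17d against a pre-TBI maximum of 704, and ssc-miR-30c-5p had 665 and 503 against 502. These were the members with no overlap at Late, and they stand for 1 measurement, beside 6.81% of all rows with both Late libraries above every pre-TBI library. ssc-miR-30b-5p had a log2 fold change of 1.28 ± 0.59 (SE, unadjusted p = 0.0400, adjusted p = 0.192), which was 1.11 without minipig 1 and 0.58 without minipig 2, neither of them called. ssc-miR-30c-5p had 0.82 ± 0.61 (SE, unadjusted p = 0.187, adjusted p = 0.404). The remaining Late values were 0.85 ± 0.42 for ssc-miR-30a-3p, 0.75 ± 0.44 for ssc-miR-30e-3p, 0.62 ± 0.64 for ssc-miR-30b-3p and 0.19 ± 0.42 for ssc-miR-30c-1-3p (SE, adjusted p = 0.303, 0.298, 0.567 and 0.869). Without minipig 1, and so with 1 Late library, the values were 0.36 for ssc-miR-30c-5p, 0.0339 for ssc-miR-30a-3p, 0.21 for ssc-miR-30e-3p and -1.01 for ssc-miR-30b-3p. With library size in place of TMM as the scaling, the median of all rows at Late moved by -0.28 on the log2 scale and that of ssc-miR-30c-1-3p turned to -0.09. At LR the fitted values ran from -1.10 to 0.13 and no row was called.

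Differences between post-TBI phases were tested in the same fit, as an addition made after the values were seen. From Early to Late, 7 of 10 rows rose at an adjusted p under 0.05, beside 31.9% of all rows called in either direction. The 7 rows include both near-identical pairs, each of which stands for 1 measurement. The largest differences were those of ssc-miR-30c-3p (2.51 ± 0.56, SE, adjusted p = 0.00345) and ssc-miR-30b-5p (2.43 ± 0.53, SE, adjusted p = 0.00305). ssc-miR-30c-5p, ssc-miR-30e-5p, ssc-miR-30a-5p, ssc-miR-30e-3p and ssc-miR-30a-3p rose by 1.95, 1.63, 1.41, 1.39 and 1.37 on the log2 scale. Without minipig 2 the values of ssc-miR-30a-5p and ssc-miR-30e-5p were -0.51 and -1.14, so their direction is that of the Late library of minipig 2. Without minipig 1 the calls of ssc-miR-30a-3p, ssc-miR-30c-3p, ssc-miR-30c-5p and ssc-miR-30e-3p were lost, at 0.86, 0.34, 1.67 and 1.03. ssc-miR-30b-5p was called in all 7 alternatives tried, with values from 2.01 (thinned counts) to 2.49. From Mid to Late, 1 row rose (ssc-miR-30e-5p, 2.62 ± 0.68, SE, adjusted p = 0.0205), beside 4.62% of all rows. It was -0.50 without minipig 2. From Late to LR, 0 rows passed the adjusted threshold, beside 0.73% of all rows, although 7 of 10 were lower at the unadjusted one, beside 20.4%. These again include both pairs.

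Over the 24 libraries the 10 rows followed each other in groups, which were formed after the values were seen. The abundant guide rows ssc-miR-30a-5p, ssc-miR-30d and ssc-miR-30e-5p had pairwise Pearson r of log2 CPM from 0.72 to 0.94. The rows ssc-miR-30b-5p, ssc-miR-30c-5p, ssc-miR-30a-3p and ssc-miR-30e-3p had r from 0.75 to 0.94 among themselves. They are the near-identical pairs, each of which stands for 1 measurement. Between these groups r ran from -0.03 to 0.61. The strands of one hairpin ranged widely in r, from 0.62 for ssc-miR-30c-5p with ssc-miR-30c-3p and 0.27 for the strands of miR-30a to 0.05 for those of miR-30e, -0.07 for those of miR-30b and -0.09 for ssc-miR-30c-5p with ssc-miR-30c-1-3p. Between guide rows of neighbouring hairpins, r was 0.51 for ssc-miR-30a-5p with ssc-miR-30c-5p, 0.31 for ssc-miR-30d with ssc-miR-30b-5p and 0.20 for ssc-miR-30e-5p with ssc-miR-30c-5p. Without the 17d libraries the ranges within the first group, within the second and between them were 0.43 to 0.93, 0.68 to 0.94 and -0.03 to 0.62 (n = 22). Within minipig 1 they were 0.26 to 0.86, 0.53 to 0.95 and -0.74 to 0.26 (n = 10). Within minipig 2 they were 0.62 to 0.96, 0.84 to 0.97 and -0.07 to 0.82 (n = 10). In neither animal were the groups fully apart. ssc-miR-30b-3p and ssc-miR-30c-3p had r of 0.75 with each other and each had its 3 highest values in the C7, 10d and 17d libraries of minipig 1. These 3 are among the 4 smallest libraries. Both rows had the strongest correlations of the family with the log2 library total, -0.55 and -0.59. All these correlations describe libraries that share 3 animals and differ in depth, and they carry no test.

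**Figure D3:**
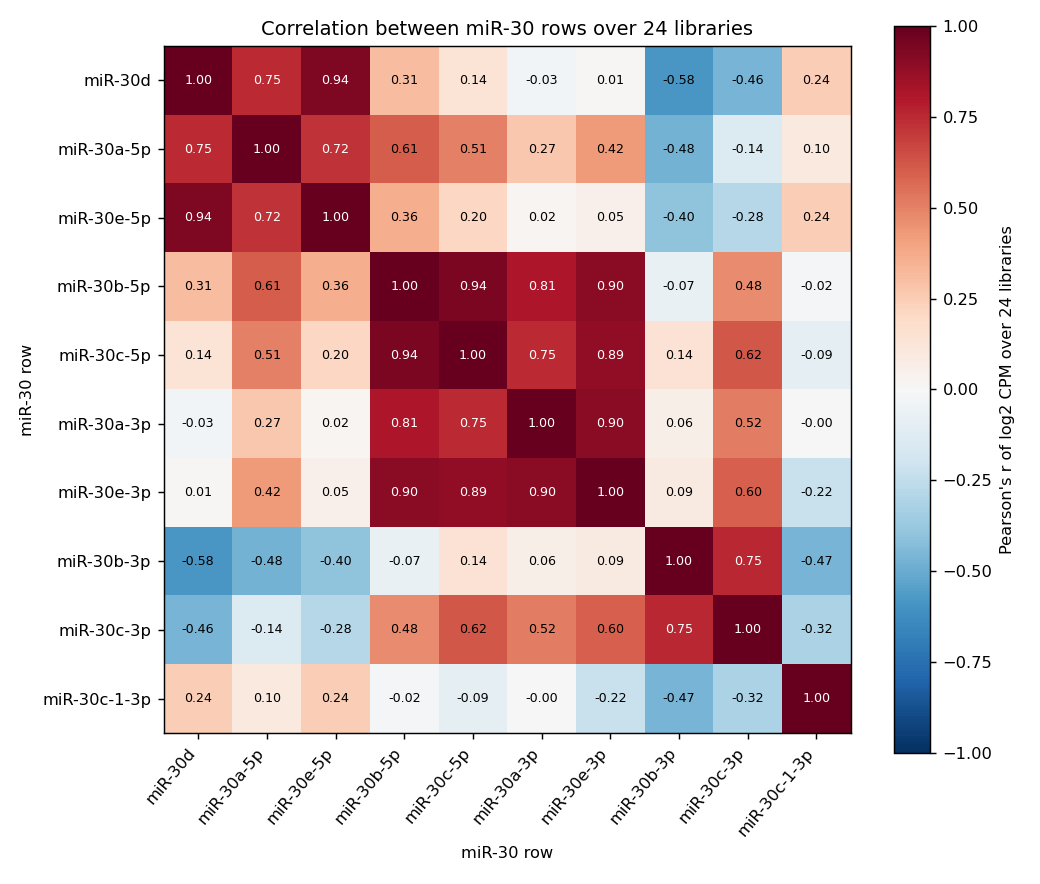
Pearson's r between the log2 CPM of each pair of miR-30 rows over 24 libraries, from -1 (blue) to 1 (red). The first 3 rows form one block with r of at least 0.72, and the next 4 rows a second block with r of at least 0.75.

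The balance between the guide groups was also followed. The summed counts of ssc-miR-30a-5p, ssc-miR-30d and ssc-miR-30e-5p over those of ssc-miR-30b-5p and ssc-miR-30c-5p need no scaling between libraries. This ratio was 4.39 in the lowest pre-TBI library, 7.70 in the median and 16.2 in the highest. At Early it was 10.7, 18.1 and 20.5, and 6 of the 10 Early libraries lay above the pre-TBI maximum. In minipig 1 the 10d, 14d, 17d and 20d libraries had ratios of 4.74, 22.9, 1.60 and 10.3. In minipig 2 they had 3.72, 11.8, 16.6 and 19.2. On the log2 scale it was 2.95 ± 0.74 before TBI (SD, n = 6) and 4.08 ± 0.30 at Early (SD, n = 10). The ratio was formed after the values were seen and was not tested.

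**Figure D4:**
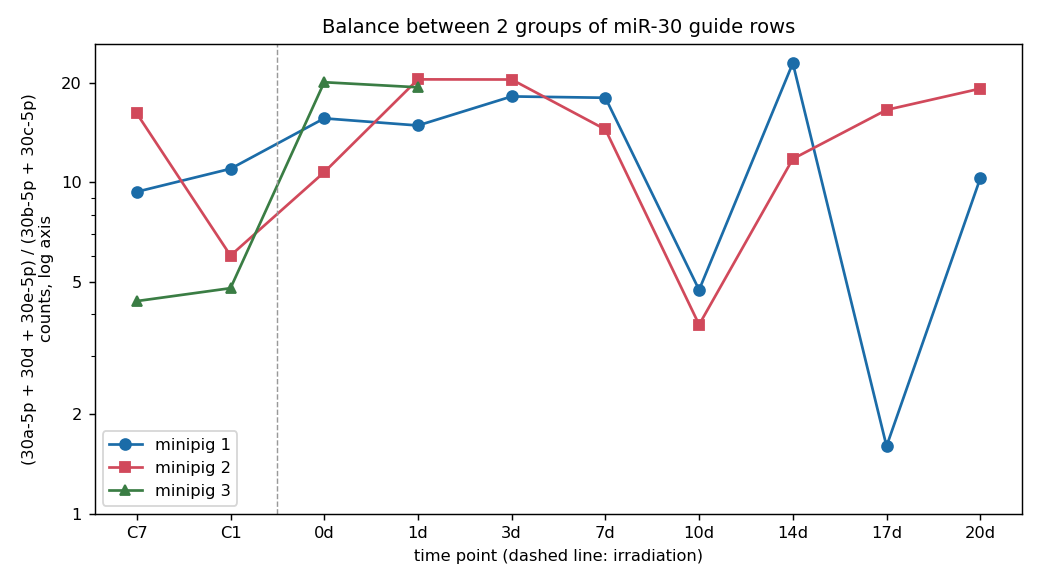
Summed counts of miR-30a-5p, miR-30d and miR-30e-5p divided by those of miR-30b-5p and miR-30c-5p at each time point (log axis), one line for each minipig. The ratio lies between 10.7 and 20.5 from 0d to 7d and is 4.74 and 3.72 at 10d.

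The ratio of the 5p to the 3p strand was compared within libraries for 5 miR-30 hairpins among 79 hairpins with both arms listed. The test was limma on log2 ratios. The miR-30 ratios are not 5 separate measurements. Those of miR-30c and miR-30c-1 share the ssc-miR-30c-5p row, and the 3p rows of miR-30a and miR-30e stand for 1 measurement. So do the 5p rows of miR-30b and miR-30c. The 5p strand was the more abundant in 24 of 24 libraries for miR-30a, with a median ratio of 7.98, and in 24 of 24 for miR-30e, with a median of 5.32. It was in the minority for miR-30c against ssc-miR-30c-3p, where it was higher in 4 of 24 libraries with a median of 0.615, and for miR-30b, with 9 of 24 and 0.791. The lowest ratios of miR-30a and miR-30e, 1.72 and 1.17, and their highest, 21.9 and 23.8, were the 17d libraries of minipig 1 and minipig 2. For ssc-miR-30c-5p against ssc-miR-30c-1-3p the 5p strand was higher in 6 of 6 pre-TBI libraries and in 4 of 10 at Early. This was the 1 called difference at Early at an unadjusted p under 0.05, -1.25 ± 0.46 on the log2 scale (SE, limma unadjusted p = 0.0130, adjusted p = 0.357), beside 6.33% of all hairpins lower. It was -1.01 without minipig 3 (limma unadjusted p = 0.0993, adjusted p = 0.836). No miR-30 arm ratio was called at Mid, Late or LR, beside 6.33%, 16.5% and 3.8% of hairpins.

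**Figure D5:**
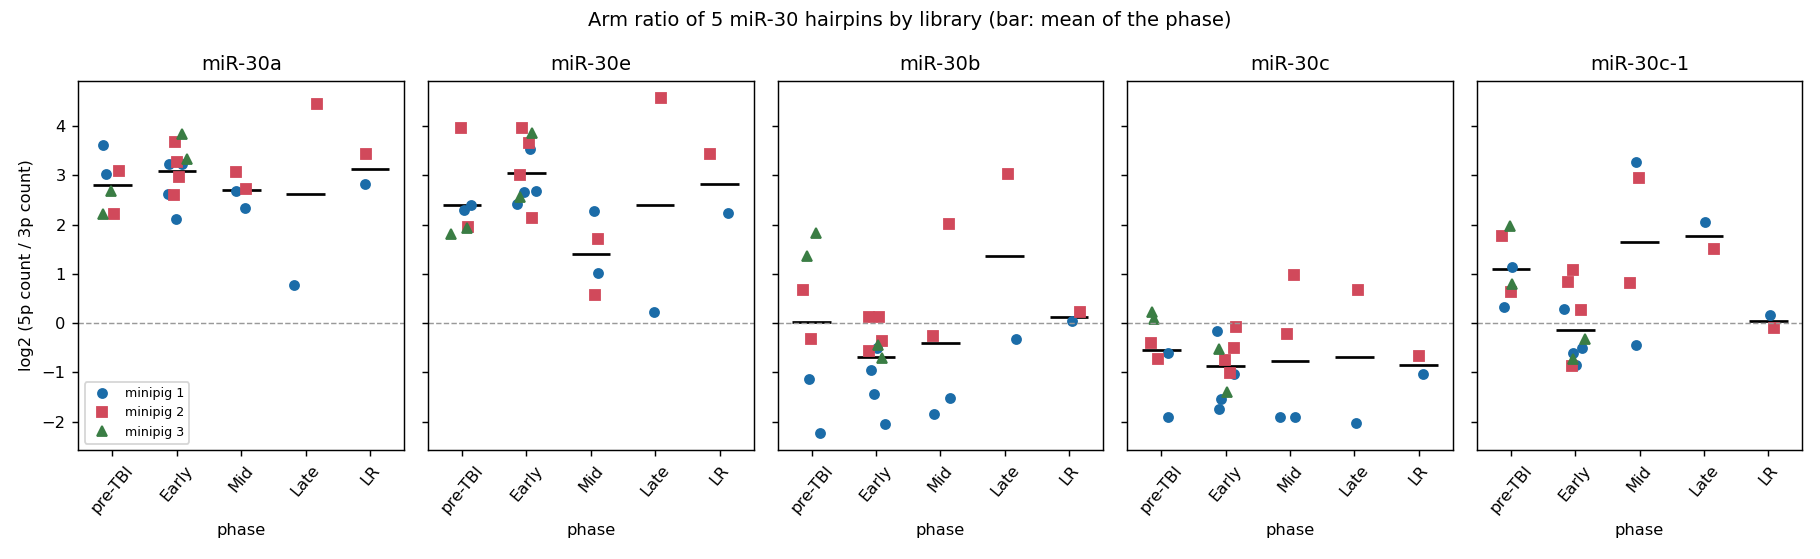
Log2 ratio of 5p to 3p counts (pseudocount 0.5) of 5 miR-30 hairpins in each library by phase, coloured by minipig, with a bar at the phase mean. miR-30a and miR-30e lie above 0 in all 24 libraries, and their Late points of minipigs 1 and 2 lie farthest apart.

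The rows outside the family most like the summed guide rows over 24 libraries were ssc-let-7f and ssc-let-7g (both r = 0.883), ssc-miR-181a (0.823), ssc-miR-15a (0.813) and ssc-let-7a (0.806), with 0.767, 0.867, 0.592, 0.703 and 0.684 without 17d. For the sum of ssc-miR-30b-5p and ssc-miR-30c-5p, a target chosen after the values were seen, they were ssc-miR-208b (0.847), ssc-miR-542-5p (0.839), ssc-miR-369 (0.826) and the identical rows ssc-miR-218-5p and ssc-miR-218 (0.804). Of 6 muscle rows, 2 were lower and 1 higher at Early at the unadjusted threshold, with a median log2 fold change of -0.20 over the list. ssc-miR-208b, a miRNA of heart and slow muscle, had the smallest p among them, with a log2 fold change of -1.99 ± 0.59 (SE, unadjusted p = 0.00261, adjusted p = 0.0766).

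Marker rows of blood cells and organs were read beside the family, since plasma holds miRNAs released by many cells. In such a sample fewer releasing cells and less RNA released per cell cannot be told apart. None of the marker lists was at 0 in any phase. The 3 erythroid rows, which mark red cell content, summed to 13.13 to 16.43 log2 CPM before TBI and to 13.03 and 13.32 at Late. ssc-miR-451 among them had log2 fold changes of -2.42 ± 0.89 at Mid and -2.74 ± 1.26 at Late (SE, unadjusted p = 0.0121 and 0.0410, adjusted p = 0.808 and 0.192). The 3 platelet and myeloid rows summed to 13.37 to 14.34 log2 CPM before TBI and to 11.03 and 12.51 at Late, where ssc-miR-191 had -2.11 ± 0.78 (SE, unadjusted p = 0.0122, adjusted p = 0.118). At LR these 3 rows summed to 12.51 and 13.47 log2 CPM, with a median log2 fold change of 0.27, and 1 of them, ssc-miR-126-5p, was higher at the unadjusted threshold (1.75 ± 0.51, SE, unadjusted p = 0.00232, adjusted p = 0.337). ssc-miR-122, the hepatocyte miRNA, had a log2 fold change at Early of -0.79 ± 0.30 (SE, unadjusted p = 0.0137, adjusted p = 0.158). At LR it had -1.39 ± 0.52 (SE, unadjusted p = 0.0130, adjusted p = 0.535). The lymphocyte rows ssc-miR-150 and ssc-miR-342 were not called in any phase. The study names miR-30a and miR-30c for irradiation too, but these were counted with the family. Of 7 rows outside the family named by the study for irradiation in other animals, ssc-miR-34a, a p53 target, rose at Late. Its log2 fold change was 1.68 ± 0.49 (SE, adjusted p = 0.0482), the only adjusted call in these lists. It rests on 2 Late libraries. Another of the 7 rows was lower at Late at the unadjusted threshold, and the median log2 fold change of the list was -0.12. The 7 rows summed to 11.96 and 12.32 log2 CPM at Late, against 11.98 to 13.02 before TBI. The part of blood cell content in the miR-30 values was not tested.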

How the data were processed

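Per the labels and the study's methods, the authors made TruSeq small RNA libraries from plasma, demultiplexed with bcl2fastq, trimmed with cutadapt, aligned with Bowtie2 (version 2.2.3.0 in the submitters' processing notes) to the pig genome (ssc5) and to miRBase, quantified known ssc-miRNAs with miRDeep2, and deposited raw counts per ssc-miRNA without normalization. The miRDeep2 setting for reads that match several miRNAs is not given in the sources used here.

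Columns were assigned to minipig and time point from the sample labels. Libraries under 1000 counts were left out. Counts were analysed with edgeR 4.0.16 (R 4.3.3): TMM, CPM above 0.5 in at least 3 libraries, 5 phases in 1 quasi-likelihood fit without a term for the animal, and Benjamini-Hochberg adjustment over all 411 rows. For rows whose spread is under Poisson counting (ssc-miR-30c-1-3p, and ssc-miR-30a-3p at Late) edgeR raises p, so p and SE need not match. Levels are TMM-scaled CPM, on the log2 scale with a prior count of 2. Arm ratios were tested with limma 3.58.1, with a pseudocount of 0.5 and a median of at least 5 counts in both arms. The programs were tested on simulated data. DESeq2 1.42.0, other scalings, filters, baselines, thinned counts, the replicate block and leaving out each minipig were alternatives.

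Libraries of one minipig are paired by design. After phase means were subtracted, library pairs of one minipig correlated at 0.169 on average (78 pairs) and pairs of different minipigs at -0.102 (130 pairs). No 2 libraries of a phase were duplicates (smallest chi-square per degree of freedom 21.8 over 68 pairs). The common biological coefficient of variation was 0.496. Counts come from PCR reads without molecular identifiers, so intervals cover counting error only.

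The members and lists were chosen with earlier results of these data known. Named outside the family were the 5 rows most like the summed guide rows and, in each list, the row with the smallest p in a phase; other names were chosen after their values were seen.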

Additional observations from a re-analysis of the deposited data

Results flagged for a closer look

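In the 4 Mid libraries, ssc-miR-30a-3p stood apart at 8.82 log2 CPM in minipig 2 at 10d (443 CPM from 19 counts), where the others lay between 166 and 182 CPM. Chance gives such a gap in about 1 in 20 groups, and 30 groups were looked at. These groups are miR-30 rows measured in the same libraries, so they are not independent of each other. The changes from pre-TBI passed a test of their difference between Early and Late (adjusted p under 0.05 in the quasi-likelihood fit, Benjamini-Hochberg, added after the values were seen) for ssc-miR-30c-3p (2.51 on the log2 scale), ssc-miR-30b-5p (2.43), ssc-miR-30c-5p (1.95), ssc-miR-30e-5p (1.63), ssc-miR-30a-5p (1.41), ssc-miR-30e-3p (1.39) and ssc-miR-30a-3p (1.37), and between Mid and Late for ssc-miR-30e-5p (2.62). Without minipig 2, which holds 1 of the 2 Late libraries, the Late minus Early values of ssc-miR-30a-5p and ssc-miR-30e-5p were -0.51 and -1.14 and the Late minus Mid value of ssc-miR-30e-5p was -0.50. The differences of these rows were smaller than the SD of their 2 Late libraries, 1.82 log2 CPM for ssc-miR-30a-5p and 2.65 for ssc-miR-30e-5p. The 7 rows with a Late minus Early call include ssc-miR-30b-5p with ssc-miR-30c-5p and ssc-miR-30a-3p with ssc-miR-30e-3p. Each of these pairs stands for 1 measurement. Among these 7 rows, ssc-miR-30b-5p alone kept its Late minus Early call under all 7 alternatives, without each minipig in turn included.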

How the results depend on the processing

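At an unadjusted p under 0.05, every library thinned to the smallest total gave 2 of 10 rows called at Early and 0 at Mid. C1 as the only baseline gave 2 at Early and C7 0 at Late, only the 2 groups in the fit gave 1 at Late and 1 at LR, and DESeq2's Wald test gave 1 at LR. A mean of at least 50 counts gave 0 at Mid, because it removes ssc-miR-30c-1-3p. Library size as the only scaling gave 1 row each for 7d and 10d, 3 for 17d and 0 for 20d. It moved the median of all rows by -0.28 at Late, and the higher share of all calls at Early from 27.3% to 4.17% and at Late from 68.8% to 46.9%. Thinned counts moved that median by -0.14 at LR. At the adjusted threshold, DESeq2, the likelihood ratio test and the 2-group fit each called 2 rows at Early, and the likelihood ratio test 1 at Late. From Early to Late, 3 rows were called with library size only and 4 with thinned counts, and from Mid to Late 0 with either and 0 with only the 2 groups. The cause of these changes was not tested. Values that turned sign were ssc-miR-30a-5p (0.0305) and ssc-miR-30b-3p (0.0650) at Early with C1 as the baseline, ssc-miR-30e-5p at Early with C7 (-0.30) and ssc-miR-30c-1-3p at Late with library size only (-0.0931). Of 387 refitted fold changes, 343 kept their direction and their side of the adjusted threshold.

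With the replicate block, that is the minipig as a term, ssc-miR-30c-3p was called at Early (-0.90, unadjusted p = 0.0286, adjusted p = 0.203) and no longer at Late (1.26, unadjusted p = 0.0604, adjusted p = 0.279), 1 row was called at 3d and 0 at 20d, 1 arm ratio was called at Late, and the call of ssc-miR-30e-5p from Early to Late was lost (adjusted p = 0.0656). The block with thinned counts gave 2 Early, 0 Mid, 2 Late and 1 LR rows, and turned ssc-miR-30b-3p at Late to -0.12. The block changed no other adjusted call.

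Leaving out one minipig at a time gave 0 to 5 rows called at Early, 0 to 1 at Mid, 2 to 5 at Late, and, by time point, 0 to 2 (0d), 0 to 3 (1d), 0 to 2 (7d), 1 to 3 (10d), 1 in each case (14d), 2 to 5 (17d) and 0 to 1 (20d). Arm ratios called ranged from 0 to 3 at Early, 0 to 1 at Mid and 0 to 3 at Late, and from 0 to 1 at Late when adjusted. Adjusted calls ranged from 0 to 2 at Late and at 17d, from 4 to 6 between Early and Late, and from 0 to 2 between Mid and Late. Where an arm kept 1 library, that library was taken to vary like the other groups. The Late log2 fold changes ranged from -0.75 to 2.02 for ssc-miR-30a-5p, -1.01 to 1.28 for ssc-miR-30b-3p, -0.37 to 0.33 for ssc-miR-30c-1-3p, -0.52 to 2.31 for ssc-miR-30c-3p, -1.73 to 2.18 for ssc-miR-30d and -0.96 to 2.36 for ssc-miR-30e-5p. Those that kept their sign ranged from 0.0339 to 1.12 for ssc-miR-30a-3p, 0.58 to 1.76 for ssc-miR-30b-5p, 0.36 to 1.06 for ssc-miR-30c-5p and 0.21 to 0.88 for ssc-miR-30e-3p. At Early ssc-miR-30c-1-3p ranged from -0.0469 to 0.33. From Early to Late ssc-miR-30a-5p ranged from -0.51 to 2.06 and ssc-miR-30e-5p from -1.14 to 2.27, and from Mid to Late ssc-miR-30e-5p from -0.50 to 3.43. Depth limits the scarce rows most, with 2 to 20 counts per row in the smallest library, that of minipig 1 at C7.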
